A study of Rattus norvegicus with 6 samples.

Results

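The genes described here are the receptor subunits, enzymes and carriers of GABA (gamma-aminobutyric acid) in rat renal cortex: Gabbr1, Gabbr2, Gabrp, Gad1, Gad2, Abat, Slc6a12 and Slc6a13. They are 8 of the 15645 gene symbols that could be given to probes of the array, and 15 probes carry their accessions, between 1 and 4 per gene. Gabbr2 was chosen because it stood among the largest differences between the groups, so its difference and interval are a description and no p-value is given for it. Whether it passed the threshold of the fit over all genes is stated below only to show how that call moved with the settings, and supports nothing. The other genes were added for their roles with results of the same comparison known, and their differences are described in the same way.

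Renal cortex of male Sprague-Dawley rats, Crl:CD(SD), bought at 5 weeks of age, was measured on 1-colour Agilent arrays. Of the 2 groups, 3 rats were given monuron, a phenylurea herbicide, at 200 mg/kg/day for 4 weeks, and 3 rats were given corn oil for 4 weeks. The labels name no other treatment and no genetic change. The comparison asks which cortical transcripts differ after repeated dosing with the herbicide. All 3 monuron arrays lay on 1 slide and all 3 corn oil arrays on another, each scanned on a day of its own, so the treatment cannot be told apart from slide or day of scanning in any value below.

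GABA is best known as the main inhibitory transmitter of the brain, but enzymes and carriers for it are also found in kidney tubules. It acts on GABA-A receptors, which are chloride channels built from several subunits, and on GABA-B receptors, which are pairs of Gabbr1 and Gabbr2 proteins. Gabbr1 binds the ligand and holds a signal that keeps it inside the cell when it is alone. Gabbr2 masks that signal, brings the pair to the surface and couples it to inhibitory G proteins. Gad1 and Gad2 make GABA from glutamate, and Abat, a mitochondrial transaminase, breaks it down. Slc6a13 is a GABA carrier of liver and proximal tubule, and Slc6a12 carries betaine as well as GABA and serves osmolyte uptake in the renal medulla.

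The 2 subunits of the GABA-B receptor are set side by side first, since Gabbr2 was lower with monuron and Gabbr1 showed no such difference. Their promoters are shown to let them be compared. Each is 250 bases before to 50 bases after the gene's RefSeq start in GRCr8, written along the gene's strand, the minus strand for both. The capitals mark the letters GGGCGG or their complement, the GC box.
Gabbr2, chr5:66083646-66083945: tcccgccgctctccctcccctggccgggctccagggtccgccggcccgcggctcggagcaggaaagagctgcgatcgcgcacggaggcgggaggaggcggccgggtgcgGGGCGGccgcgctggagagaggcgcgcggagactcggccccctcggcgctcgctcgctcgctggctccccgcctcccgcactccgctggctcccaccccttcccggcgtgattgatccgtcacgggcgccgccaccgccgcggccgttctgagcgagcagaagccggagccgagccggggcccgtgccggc
Gabbr1, chr20:1499187-1499486: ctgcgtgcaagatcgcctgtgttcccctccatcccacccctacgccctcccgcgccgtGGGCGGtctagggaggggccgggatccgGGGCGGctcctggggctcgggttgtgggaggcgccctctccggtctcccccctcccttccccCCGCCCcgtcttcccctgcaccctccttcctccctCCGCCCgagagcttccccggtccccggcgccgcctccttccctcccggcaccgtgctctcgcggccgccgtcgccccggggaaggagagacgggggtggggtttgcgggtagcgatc
Both windows are rich in G and C. These bases make up 78.7% of the Gabbr2 window and 75% of the Gabbr1 window, levels reached by 1.34% and 3.24% of 33469 promoters of the same length. The dinucleotide CG occurs 47 times in the Gabbr2 window and 32 times in the Gabbr1 window. Both strands were searched for each motif. The GC box matched once for Gabbr2 and 4 times for Gabbr1, and 33.1% of all promoters hold it. The core GCGTG, bound by the aryl hydrocarbon receptor, matched once in each window without overlapping a GC box, and 29.7% of promoters hold it. The cAMP response element TGACGTCA, the E-box CACGTG, the STAT site TTCNNNGAA, the TATA box TATAAA and the box CCAAT were found in neither window. They occur in 1.83%, 6.42%, 8.87%, 14.2% and 37.5% of promoters. A match describes letters and shows no bound factor.

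Gabbr2 was far lower in monuron-dosed cortex on both of its probes. All levels are the processed spot signal divided by the array's 75th percentile, called the scaled signal, and differences are on the log2 scale, monuron minus corn oil. The brighter Gabbr2 probe (A_64_P045388) had a scaled signal of 0.177, 0.285 and 0.447 on monuron replicates 1 to 3, against 1.87, 1.94 and 1.96 on corn oil replicates 1 to 3. The second probe (A_42_P467277) had 0.0857, 0.167 and 0.253 on the monuron arrays, against 1.24, 1.12 and 1.20 on the corn oil arrays. No monuron array came near the lowest corn oil array on either probe, and both probes put monuron replicate 1 lowest and monuron replicate 3 highest among the treated rats. Every one of these spots was well above background. In log2 terms the brighter probe averaged -1.82 ± 0.67 with monuron and 0.94 ± 0.04 with corn oil (SD, n = 3 each). The difference was -2.77 ± 0.32 (SE), with a 95% interval of -3.56 to -1.97, or 6.80-fold lower (3.91 to 11.8). The second probe gave -2.95 ± 0.38, with an interval of -3.88 to -2.01, or 7.70-fold lower. The signal left with monuron was thus 14.7% and 13.0% of that with corn oil by the brighter and the second probe. In bulk cortex, fewer cells that carry a transcript and less of it per cell cannot be told apart.

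**Figure D1:**
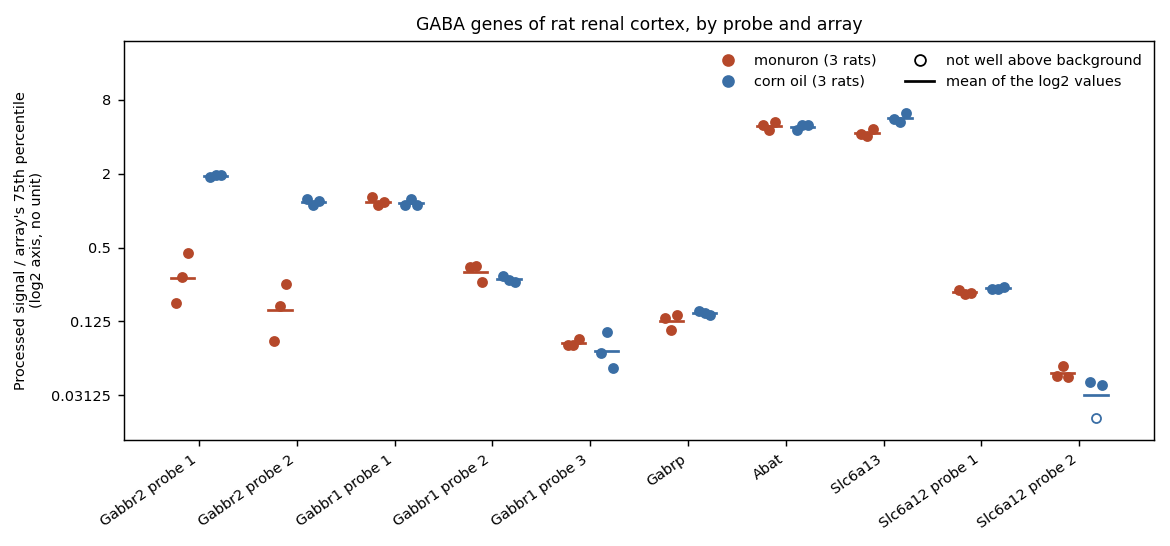
Scaled signal (processed signal over the array's 75th percentile, log2 axis) of the 10 member probes that passed the detection filter, with monuron left of corn oil for each probe. Points are arrays, bars are the means of 3 log2 values, and the open point was not well above background. Both Gabbr2 probes lie lower on all 3 monuron arrays, while the Gabbr1 and Abat points of the groups overlap.

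On the log2 scale the treated rats differed from each other in Gabbr2 far more than the controls did. Against the corn oil mean the brighter probe was 10.8-fold, 6.75-fold and 4.30-fold lower on monuron replicates 1 to 3, and the second probe 13.8-fold, 7.07-fold and 4.67-fold lower. The SD of 0.67 among monuron arrays was reached or passed by 2.11% of the 30229 genes tested, and the SD of 0.04 among corn oil arrays was at most matched by 9.56% of them. The median SD of all genes was 0.12 with monuron and 0.13 with corn oil. In scaled signal, without log2, the brighter Gabbr2 probe had an SD of 0.136 with monuron and 0.049 with corn oil. The second probe had 0.084 and 0.064, so its groups differed less in spread on that scale. The step between the 2 Gabbr2 probes was 1.05, 0.77 and 0.82 on the log2 scale on the monuron arrays, and 0.59, 0.80 and 0.71 on the corn oil arrays. The probes therefore moved nearly together, with the widest step on monuron replicate 1, where the second probe was dimmest.

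Gabbr1, the ligand-binding partner, showed no such fall. Its brightest probe (A_44_P249164) had a scaled signal of 1.28, 1.11 and 1.17 on the monuron arrays, against 1.105, 1.24 and 1.11 on the corn oil arrays. The groups overlapped, and the difference was 0.04 ± 0.09 with an interval of -0.18 to 0.25. The probe A_64_P089415 had 0.345, 0.355 and 0.263 with monuron and 0.293, 0.273 and 0.261 with corn oil, a difference of 0.21 ± 0.13. The dimmest probe (A_64_P089421) had 0.0798, 0.0803 and 0.0897 with monuron and 0.0690, 0.102 and 0.0519 with corn oil, a difference of 0.22 ± 0.25. On all 3 probes the interval held 0, and the largest upper bound was 0.82. Set against Gabbr1 within each array, which needs no scaling, the brighter Gabbr2 probe stood at -3.59, -2.70 and -2.12 on monuron replicates 1 to 3 relative to the corn oil mean of that difference, while corn oil replicates ran from -0.09 to 0.08. The mean was -2.80 ± 0.74 with monuron, where the corn oil arrays had an SD of 0.09 (n = 3 each).

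Gabrp encodes the pi subunit, a GABA-A subunit of epithelia outside the brain. Its probe had a scaled signal of 0.133, 0.106 and 0.141 on the monuron arrays, against 0.153, 0.147 and 0.141 on the corn oil arrays. The groups overlapped at monuron replicate 3, and the other monuron arrays were lower than every corn oil array, with a difference of -0.22 ± 0.12 and an interval of -0.52 to 0.08.

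The enzymes of GABA synthesis gave almost no signal in cortex of either group. None of the 4 Gad1 probes was well above background on any monuron array, and 1 of them (A_44_P536310) was so on corn oil replicate 1 only, at 41.8 signal units against 8.28 and 5.25 units on the other corn oil arrays and 3.56 to 4.06 units on the monuron arrays. The single Gad2 probe was well above background on 0 of 3 monuron and 0 of 3 corn oil arrays. Gad1 and Gad2 were therefore left out of the fit, and whether their levels differed was not detectable at this signal. Abat, which degrades GABA, gave a clear signal. It had a scaled signal of 5.002, 4.50 and 5.23 on the monuron arrays, against 4.53, 4.95 and 5.004 on the corn oil arrays. The groups overlapped, with a difference of 0.02 ± 0.09 (-0.19 to 0.24).

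Of the carriers, Slc6a13 had lower values on each monuron array but was not called in the limma fit over all genes. Its scaled signal was 4.24, 4.09 and 4.62 on the monuron arrays, against 5.54, 5.24 and 6.28 on the corn oil arrays. The groups did not overlap, and the difference was -0.40 ± 0.09 (-0.63 to -0.16), or 1.32-fold lower. Markers of the proximal tubule, where this carrier sits, are given beside it. Of 12 measured proximal markers 10 had a difference below 0 and none was called by limma. An unadjusted p under 0.05 was found for 5 of them, beside 17.6% of all genes tested. The groups did not overlap for 6 of them, beside 25.7% of all genes. Their summed scaled signal was 2370 to 2536 on the monuron arrays, against 2637 to 3096 on the corn oil arrays. The part of these markers in the Slc6a13 difference was not tested.

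The probes of Slc6a12, the betaine and GABA carrier, disagreed. The brighter (A_42_P596458) had a scaled signal of 0.226, 0.210 and 0.212 on the monuron arrays, against 0.232, 0.231 and 0.236 on the corn oil arrays. That is a narrow gap without overlap, with a difference of -0.11 ± 0.06 and an interval of -0.27 to 0.04. The dimmer (A_44_P141992) had 0.0451, 0.0539 and 0.0440 with monuron and 0.0403, 0.0203 and 0.0377 with corn oil, a difference of 0.60 ± 0.28 (-0.08 to 1.28). It passed the detection filter through the monuron arrays alone, since corn oil replicate 2 was not well above background. No direction is given for Slc6a12.

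**Figure D2:**
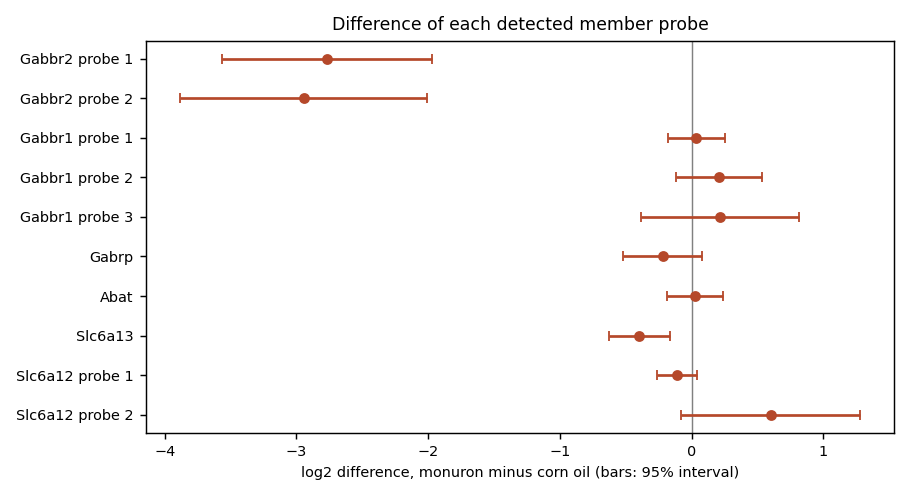
Log2 difference, monuron minus corn oil, of the 10 detected member probes; bars are 95% intervals from limma. The Gabbr2 probes lie at -2.77 and -2.95, Slc6a13 lies at -0.40, and the intervals of the other probes hold 0.

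In the fit over all genes, which tested the brightest passing probe of each gene with limma, 6 of the 8 genes were measured and 1, Gabbr2, passed the threshold of 0.05 on the adjusted p. Over all 30229 genes 1.36% passed, 287 higher (0.949%) and 125 lower (0.414%) with monuron. In the fit on every probe 2 of the 10 passing member probes were called, both of Gabbr2, beside 1.22% of all probes. Since the same comparison chose Gabbr2, nothing is read from this count. The split of calls moved with the scaling: it was 366 higher and 61 lower without scaling, 450 and 317 after normexp correction with quantile normalization, and 300 and 20808 when scaled on spike-in controls. The groups did not overlap for 3 of the 6 measured genes (Gabbr2, Slc6a13 and Slc6a12), where 25.7% of all genes showed this and 10.3% did so with monuron lower. Of the 10 probes 5 did not overlap, beside 25.6% of all probes. Both Gabbr2 probes are among them. So is the dimmer Slc6a12 probe, which passed the detection filter through the monuron arrays alone. Nothing is read from the counts of overlap either. Gabbr2 ranked as number 7 from the bottom by difference among all genes tested, the measure that chose it. Its call was lost when any of 5 single arrays was left out and held only without monuron replicate 3. The difference was -3.10 without monuron replicate 3 and -2.43 without monuron replicate 1. It lay between these values when any other single array was left out. Scaled on spike-in controls, Gabbr2 stood at -3.28, and the other 5 measured genes were all called lower, with the median of all genes at -0.48 under that scaling and 0.02 under the 75th percentile.

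Liver transcripts varied between the arrays and are given beside Gabbr2. The summed scaled signal of 10 measured hepatocyte markers was 57.1, 28.1 and 20.3 on monuron replicates 1 to 3, against 12.8, 16.99 and 31.2 on corn oil replicates 1 to 3. All 10 had a difference above 0, none was called by limma, 1 had an unadjusted p under 0.05, and the marker Cps1 was not measured. Among the treated rats the array highest in these transcripts was the lowest in Gabbr2, on both Gabbr2 probes. Among the controls the array highest in them had the highest signal on the brighter Gabbr2 probe, 1.96 against 1.94 and 1.87. On the second probe the highest control was corn oil replicate 1, the lowest in these transcripts. Without monuron replicate 1 and corn oil replicate 3, a pair chosen after seeing the data, the Gabbr2 difference was -2.42. The remaining monuron arrays still had the higher sums, 28.1 and 20.3 against 12.8 and 16.99 on the remaining corn oil arrays. The part of liver transcripts in the Gabbr2 difference was not tested.

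Markers of nerve, a tissue known for Gabbr2, are given in the same way. Of 14 neuron and Schwann cell markers 11 were measured, and Stmn2, Nefl and Dbh were not. Their summed scaled signal was 5.39 to 5.86 on the monuron arrays, against 5.29 to 6.66 on the corn oil arrays, so the groups overlapped. None was called by limma, 1 had an unadjusted p under 0.05, and the median difference was -0.08. Red cell markers were higher with monuron. Of 6 measured erythroid markers 4 rose in limma, Alas2, Hba-a1, Hbb and Klf1, and the sum was 1091 to 1143 with monuron against 488 to 670 with corn oil. The part of these markers in the GABA gene differences was not tested. As labelled, the tissue carried cortical markers: all 12 proximal tubule and all 6 podocyte genes were measured. All 6 thick ascending limb markers and the 4 inner medulla markers on the array were measured too. Detection alone therefore cannot tell cortex from medulla. Of the 4 inner medulla markers 3 had a difference above 0, and limma called 0 of them. Of 10 adrenal markers 6 (Star, Cyp11b1, Cyp11b2, Mc2r, Chga and Chgb) were not measured. The other 4, Hsd3b1, Pnmt, Cyp21a1 and Cyp11a1, all had a difference above 0 and limma called 0 of them, with 1 at an unadjusted p under 0.05. That was Hsd3b1, at 0.75 ± 0.22 without overlap (limma adjusted p = 0.177).

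The wider GABA machinery was examined through lists of genes grouped by role. Across 6 lists with 73 genes, 47 were measured and limma called 0 higher and 0 lower, with 11 (23.4%) at an unadjusted p under 0.05, beside 17.6% of all genes. With a trended, robust variance 3 were called (Slc1a1 and Trak2 higher, Gphn lower), and after normexp correction 1 (Trak2). Scaled on spike-in controls, 37 were called, all lower. The groups did not overlap for 25.5% of the 47, close to the 25.7% of all genes, and the median difference was 0.00 against 0.02 over all genes.

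**Figure D3:**
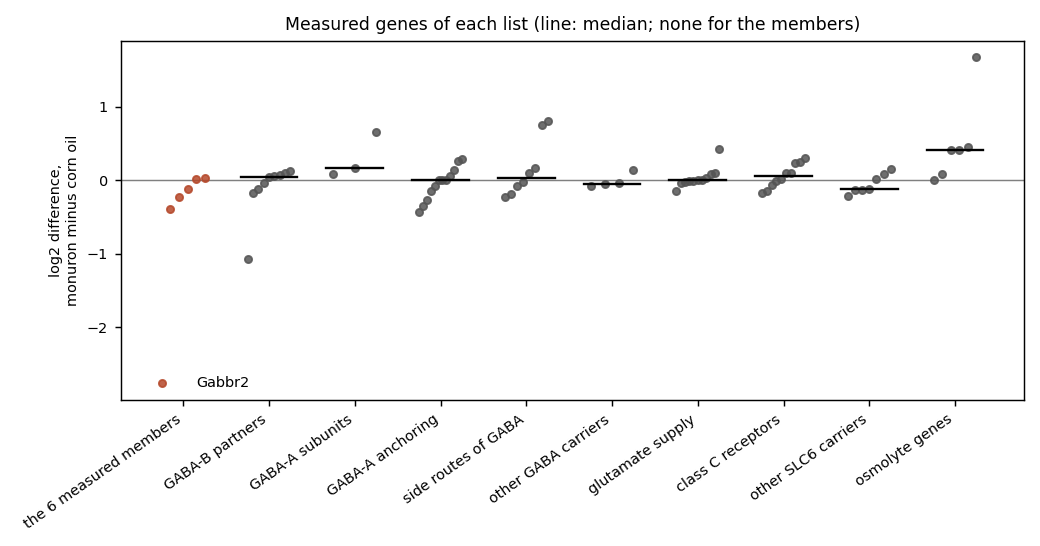
Log2 difference, monuron minus corn oil, of each measured gene by list; points are genes (brightest passing probe) in rising order, and lines are list medians, drawn for the 9 lists but not for the members. Gabbr2 lies at -2.77, and the low point among the GABA-B partners is Kcnj9 at -1.08, which was not well above background on monuron replicate 2.

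Among partners of the GABA-B receptor 9 of 15 genes were measured and limma called 0, with 1 at an unadjusted p under 0.05. They include Gnai2, an inhibitory G protein subunit (difference 0.06 ± 0.07, adjusted p = 0.71), and App, whose product binds the Gabbr1 protein (-0.17 ± 0.07, adjusted p = 0.272). Kcnj3 and Kcnj5, subunits of the potassium channels that the receptor opens in neurons, had differences of -0.03 and -0.11. Kcnj9, another such subunit, was named after its values were seen. It stood at -1.08 ± 0.83 (limma adjusted p = 0.551), and monuron replicate 2, not well above background, had a scaled signal of 0.0133 while the other 5 arrays lay between 0.0913 and 0.122. The auxiliary subunit genes Kctd8 and Kctd16 did not pass the detection filter.

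Of 18 GABA-A subunits other than Gabrp, 15 were not measured in cortex, among them all 6 alpha and all 3 gamma subunits. The remaining 3 were not called, with 1 at an unadjusted p under 0.05. Gabrq, the theta subunit, had a difference of 0.08 ± 0.07, and Gabrd, the delta subunit, 0.17 ± 0.09. Gabrb2, the beta-2 subunit, exceeded background clearly on all 3 monuron arrays and on 0 of 3 corn oil arrays, at 0.0242, 0.0290 and 0.0249 with monuron against 0.0162, 0.0231 and 0.0119 with corn oil. It passed the detection filter through the monuron arrays alone, where it is high, so no difference is given for it, and it is the gene behind the count of 1 above. It was named after its values were seen. Of 12 genes that anchor and traffic these receptors all were measured, 0 were called and 4 had an unadjusted p under 0.05. Those 4 went in both directions. Trak2 and Hap1 had differences of 0.26 ± 0.06 and 0.29 ± 0.06, and Plcl1 and Gphn of -0.36 ± 0.12 and -0.44 ± 0.09. Trak2, Hap1 and Plcl1 were named after their values were seen. Gabarapl1 and Gabarap, better known for their work in autophagy, had differences of -0.00 ± 0.08 and 0.00 ± 0.06. Gphn, which encodes the scaffold gephyrin, was named after its values were seen. It had 1.57, 1.34 and 1.32 on the monuron arrays, against 1.92, 1.89 and 1.90 on the corn oil arrays, without overlap, and was not called (-0.44 ± 0.09, limma adjusted p = 0.0918).

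Enzymes of side routes make GABA from polyamines or handle its breakdown product, succinic semialdehyde. Of 10 such genes 8 were measured and limma called 0, with 4 at an unadjusted p under 0.05. Akr7a3, an aldehyde reductase, had the largest difference. Its scaled signal was 202, 256 and 232 on the monuron arrays, against 105, 147 and 147 on the corn oil arrays, without overlap (0.80 ± 0.17, limma adjusted p = 0.097). Akr7a2, known as a succinic semialdehyde reductase, differed in the other direction, with 61.6 to 63.7 with monuron against 69.5 to 73.0 with corn oil (-0.18 ± 0.06, limma adjusted p = 0.211). Aldh9a1, which can form GABA from its aldehyde, stood at 0.10 ± 0.06. Odc1, the first enzyme of polyamine synthesis, had 3.97, 6.85 and 5.97 with monuron and 3.19, 3.35 and 3.15 with corn oil (0.76 ± 0.20, limma adjusted p = 0.155). Akr7a2 and Odc1 were named after their values were seen.

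Glutamate is the substrate of GABA synthesis. Of 12 genes for its supply 11 were measured and limma called 0, with 1 at an unadjusted p under 0.05. Glud1, glutamate dehydrogenase, had a difference of -0.14 ± 0.11. The exception on the unadjusted p was Slc1a1, the glutamate and aspartate carrier of the tubule brush border, named after its values were seen. It had 10.9, 11.8 and 10.8 with monuron against 8.33, 8.85 and 7.70 with corn oil (0.43 ± 0.08, limma adjusted p = 0.0815). Of 6 other carriers that can move GABA 4 were measured, 0 were called and 0 had an unadjusted p under 0.05. The probe of Slc32a1, the vesicular GABA carrier, had a difference of -0.06 ± 0.07, and that of Slc6a6, the taurine carrier, -0.03 ± 0.10.

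Relatives of the members by protein family were described in the same way. Of 20 class C receptors, the family that holds Gabbr2, 10 were measured and limma called 0, with 2 at an unadjusted p under 0.05. Their differences ran from -0.18 to 0.30. Casr, the calcium-sensing receptor, stood at -0.18 ± 0.12 and Gprc5c at -0.06 ± 0.08. Of 14 other SLC6 carriers 7 were measured, 0 were called and 0 had an unadjusted p under 0.05. The creatine carrier gene Slc6a8 stood at -0.22 ± 0.12, and Slc6a18 at 0.02 ± 0.15. A list of 8 genes tied to osmolytes or tonicity was added because Slc6a12 is an osmolyte carrier. Of these 6 were measured and 0 called, with 3 at an unadjusted p under 0.05, beside 17.6% of all genes. Their median of 0.42 is not one of osmolyte genes alone. The list holds Bdkrb2, a bradykinin receptor, at 0.41 ± 0.07, which is among the 3. It also holds Akr1b10 at 1.68 ± 1.11, with 0.247 on corn oil replicate 2 against 3.62 and 3.89 on the other corn oil arrays. Akr1b1, aldose reductase, stood at 0.08 ± 0.23. Slc5a3, the myo-inositol carrier, had 4.73, 5.27 and 4.98 with monuron and 3.43, 4.14 and 3.67 with corn oil (0.42 ± 0.09, limma adjusted p = 0.11). Nfat5, the factor that drives osmolyte genes, stood at 0.01 ± 0.09. Of 5 inner medulla markers 4 were measured and summed to 2.83 to 3.43 with monuron against 2.32 to 2.69 with corn oil, and their part in these values was not tested.

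The genes whose profile lay nearest to Gabbr2 were found by the root mean square distance between log2 levels over the 6 arrays, after each gene's mean was subtracted. All 5 were lower with monuron, as the measure requires. Clstn2, which encodes a calsyntenin, a cadherin-like membrane protein, was nearest at a distance of 0.32. It had a scaled signal of 0.00934, 0.0230 and 0.0381 on the monuron arrays, against 0.131, 0.0915 and 0.109 on the corn oil arrays. It was not well above background on monuron replicate 1, its lowest array, and passed the detection filter through the corn oil arrays, so its distance rests in part on a spot with only a bound. Limma did not call it (-2.44 ± 0.51, adjusted p = 0.0972). A second Clstn2 probe put monuron replicate 2 highest among the treated rats, at 0.00778 against 0.00395 and 0.00408 on the other monuron arrays. It was dim, well above background on 0 of 3 monuron arrays and 1 of 3 corn oil arrays.

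Ces2b, a carboxylesterase, followed at a distance of 0.52, with 0.00498, 0.00947 and 0.0358 on the monuron arrays and 0.0501, 0.0718 and 0.0814 on the corn oil arrays. It was well above background on monuron replicate 3 alone among the treated rats and passed the detection filter through the corn oil arrays, so its order among treated rats and its distance are not measured ones, and limma did not call it (adjusted p = 0.173). Cish, a suppressor of cytokine signalling, came at 0.60 and Inmt, a methyltransferase, at 0.68. Both were called lower by limma (adjusted p = 0.00986 and 0.0179), but their treated rats lay closer together than for Gabbr2, with an SD of 0.25 and 0.12. Cish was highest, not lowest, on monuron replicate 1. Slc25a21, a mitochondrial carrier of oxodicarboxylates, came at 0.72 and was not called (-2.40 ± 0.50, adjusted p = 0.0966).

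**Figure D4:**
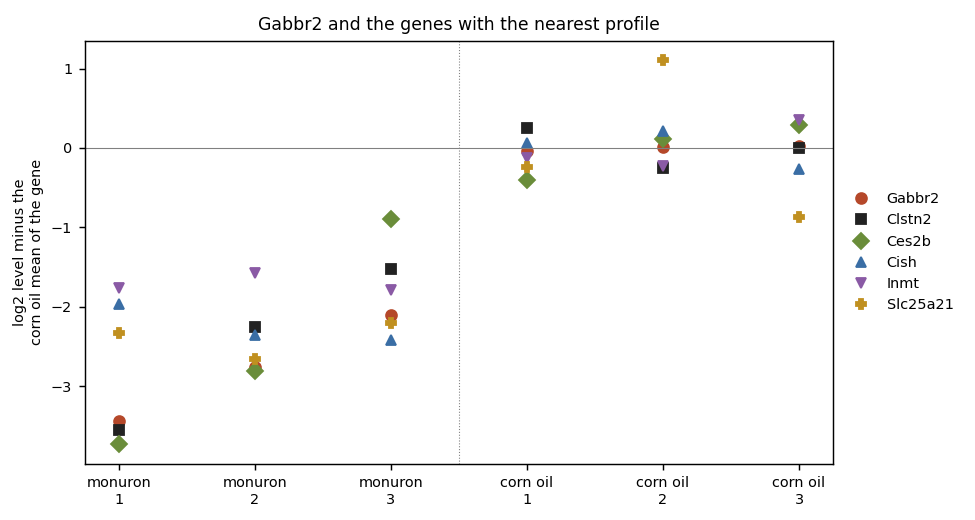
Log2 level on each array minus the gene's own corn oil mean, for Gabbr2 and the 5 genes with the nearest profile; each point is an array. All 6 genes lie below 0 on every monuron array; Clstn2 was not well above background on monuron replicate 1, nor Ces2b on monuron replicates 1 and 2.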

How the data were processed

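Values in the deposited scanner files are spot intensity, linear. The submitters' processing notes name Agilent Feature Extraction 10.7. The table of values deposited by the authors is a ratio: it equals the processed signal over 1 constant per array (within 0.0497% for values of at least 0.1).

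Each processed signal was divided by its array's 75th percentile, taken over 61537 non-control probes, and log2 was taken. Feature outliers were left out, and 0 spots were saturated. Between 42289 and 43349 probes were well above background on the monuron arrays. On corn oil replicates 1 to 3 the counts were 43136, 37454 and 40538. Detection was thus lower over all probes on corn oil replicates 2 and 3. A probe was kept if well above background on all 3 arrays of a group (41125 probes). Accessions were matched to RefSeq symbols (GRCr8, 28206 probes); other probes keep their accession. The brightest probe per gene was tested with limma 3.58.1 in R 4.3.3 (two-sided, Benjamini-Hochberg over 30229 genes). For further probes of a gene, differences and intervals come from the same fit on every probe. The fit was tested on simulated arrays with independent noise and no slide effect, so this test says nothing about slide or scan day. The number of arrays limits the precision. The labels call the 3 samples of a group separate animals.

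Members and lists were chosen with earlier results of these data known. All member probes are described. Of each list, called genes and the 2 highest in level are named, others as stated; 1 gene that this rule names is not reported here. The 5 nearest profiles to Gabbr2 were fixed by rule. The normexp alternative used the median spot signal and its local background. Promoter sequences are from RefSeq, which held 5 of the 8 genes. Probe sequences were not used here.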

Additional observations from a re-analysis of the deposited data

How the results depend on the processing

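The Gabbr2 difference lay between -3.28 (spike-in scaling) and -2.32 (normexp) over 21 alternatives and below 0 in all of them. It ran from -3.10 to -2.43 when 1 array was left out, and was called in 13 of 21. Over all genes 412 were called, against 21108 with spike-in scaling, 767 with normexp and quantile normalization, 707 with a trended, robust variance, 86 without a detection filter, and 30 to 138 with 1 array left out. With 0 calls, 4557 genes had an unadjusted p under 0.05 with the replicate number as a block, and 4190 when monuron replicate 1 and corn oil replicate 3 were both left out, an alternative chosen after seeing the data. The cause of these changes was not tested. The 47 GABA list genes had 0 calls, against 37 with spike-in scaling, 1 with normexp and 3 with the trended variance, and the other 5 measured members had 0, against 5 with spike-in scaling. Slc6a13 and Gabrp stayed below 0 in all 21 alternatives, and Gabbr1 and Abat were above 0 in 18. Slc6a12 was below 0 in 19, all by its brighter probe. It stood at 0.24 with the mean of its probes and at 0.007 with normexp, so no direction is given for it. No label says that the replicate numbers pair the rats. Same-numbered arrays deviated from their group means with correlations of -0.08, 0.11 and -0.17 over genes. Replicate 2 of each group correlated best with its own number, and the others did not. With 3 arrays per group these values cannot decide whether the rats were paired. Under the replicate block, which cannot change a mean difference in this balanced design, Gabbr2 stood at -2.77 and was not called.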
